A study of Eumeta variegata with 6 samples.

Results

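Heat shock proteins and their partner chaperones were described in the heads of a bagworm moth, Eumeta variegata, with 3 male libraries set against 3 female ones. The members were the sequences of a de novo assembly whose deposited protein name held a heat shock, lethal(2)essential for life, alpha-crystallin, DnaJ, T-complex protein 1, prefoldin, Hsp70-binding, Hsp90 co-chaperone or BAG chaperone term. They numbered 78 of 41283 sequences. The name was the NR description for 75 of them and the Swiss-Prot description for 3, used where NR gave no informative one. All libraries came from heads, the labels name no treatment, and the groups differ in the labels only by sex. Neither age nor stage is given, and it is not stated if each library stands for a separate insect or a pool. The p-values therefore cover the spread among these 6 samples alone, part or all of which may be technical. The series as a whole was set up to find neuropeptides and their receptors.

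Chaperones bind proteins that are unfolded or not yet folded and keep them from clumping until they reach their working shape. Small heat shock proteins, built around an alpha-crystallin domain, hold damaged proteins without using ATP and pass them to the Hsp70 machine, in which DnaJ proteins deliver the client and trigger ATP hydrolysis. Hsp90 matures kinases and receptors, the ring-shaped chaperonins enclose a client, prefoldin hands them new actin and tubulin chains, and heat shock factor switches many of these genes on under stress. In insects the small heat shock proteins are a family of many copies and are abundant in muscle, where several sit at the Z disc, the plate that anchors the thin filaments.

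By role, the names fell into 15 small heat shock proteins, 26 DnaJ proteins, 12 chaperonins, 7 members of the Hsp70 family, 3 of the Hsp90 family, 6 prefoldin subunits, 4 co-chaperones of Hsp70 or Hsp90, 2 heat shock factor sequences with 1 factor-binding protein, and 2 sequences named T-complex protein 11-like. The last pair shares a word with the chaperonins but is not of that family. A chaperone domain was listed in the deposited Pfam column for 62 of the 78. Not all members are cytosolic: HSP60A, the 10 kDa heat shock protein, Heat shock protein 75 kDa and Hsp70 cognate 5 are mitochondrial, and the sequence named heat shock protein 90-2 was assigned by the authors' KEGG column to the endoplasmic reticulum form of Hsp90. The best NR match was in Eumeta japonica for 65 members and in 12 other species for the other 13. Each member was a separate Trinity gene, but 19 shared their matched NR protein with another member, over 9 such proteins, so reads may have been divided between near-identical copies and values of single copies are uncertain.

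Levels were FPKM, which divide the fragments of a sequence by its length and by the total of the library and so hide the number of reads: depth was unknown. The FPKM of a library summed to between 480295 and 492028, and 30100 to 32360 sequences reached 1 FPKM. The libraries also fell into sets that cut across sex: in male 2, male 3 and female 2 fewer of the sequences whose names end in 1 were listed at 0 than of those ending in 2, and in male 1, female 1 and female 3 the reverse held. In male 3 the shares at 0 were 2.96% and 9.98%, and in female 1 they were 13.2% and 4.32%. Sex differences are therefore also given within each set, where 1 sex has a single library.

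All 78 members passed the filter of at least 1 FPKM in at least 3 of 6 libraries, 76 reached 1 FPKM in every library, and none was listed at 0 anywhere. The sexes were compared with limma on log2(FPKM + 1), adjusted over all 35198 sequences that passed the filter, and a sequence was called at an adjusted p below 0.05. Differences are male minus female on that scale, which understates the change of low sequences. Each SE is limma's moderated one, drawn toward the variance trend of sequences at a similar level. It can therefore differ from the spread of a sequence's own replicates. Of the 78, 17 were called, or 21.8%, against 7.11% of all sequences tested. Higher in females were 13 members, 16.7%, against 2.7% of all, and higher in males 4, 5.13%, against 4.4% of all. Among sequences at 1 FPKM or more in every library the gap was smaller, with 19 of 76 members or 25.0% against 15.4%. There 14 of the 76, or 18.4%, were higher in females, a larger share than the 1116 of 18694 sequences. Higher in males were 5 of the 76, or 6.58%, a smaller share than the 1763 of 18694 sequences. Male and female values did not overlap in 41 members, or 52.6%, against 30.2% of all sequences tested, a background that includes many sequences below 1 FPKM in some library. Leaving out male 1, male 2 or male 3 reduced the 17 calls to 8, 9 and 9, as it reduced the calls over all sequences from 2501 to 822, 837 and 910. Over all sequences 1549 were higher in males and 952 in females, a split that median-of-ratios scaling turned to 1324 and 1330.

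The median difference of all members was −0.03, with a median absolute difference of 0.18, against 0.05 and 0.31 for all sequences tested. The calls were concentrated in 1 family by count: 9 of the 17 were small heat shock proteins, and the 8 largest differences in size all belonged to that family. The whole group made up 3.43% to 3.58% of a male library's summed FPKM and 3.83%, 4.60% and 4.77% of the summed FPKM of females 1, 2 and 3.

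**Figure D1:**
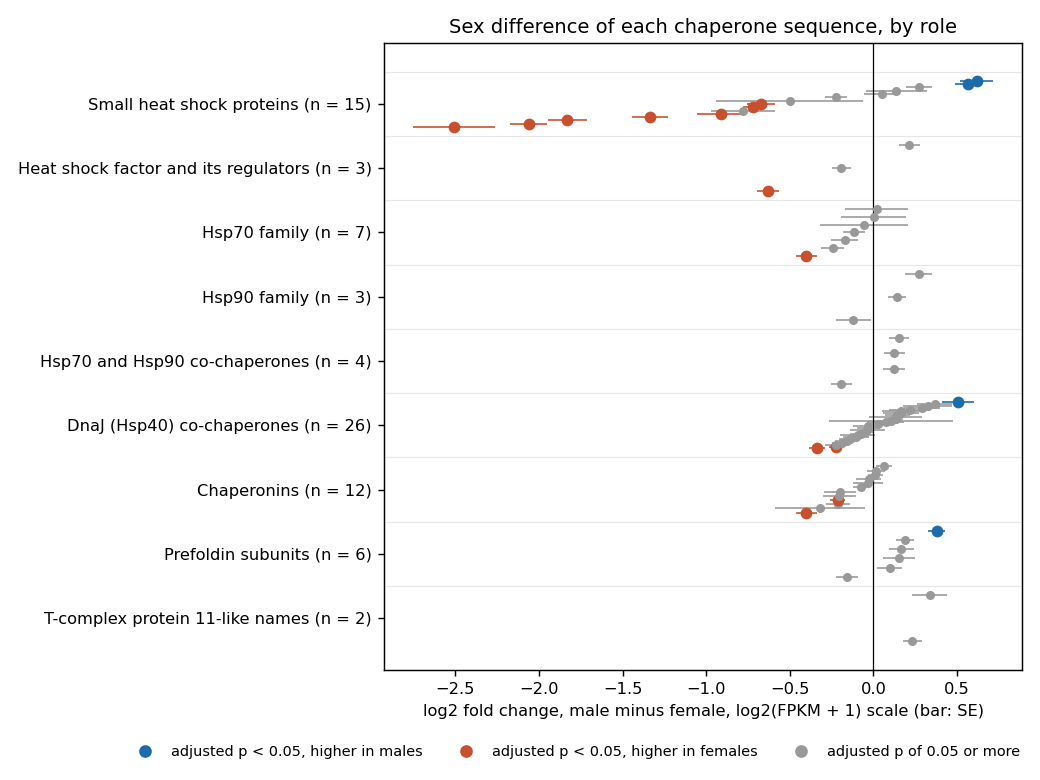
Log2 difference between the sexes, male minus female on the log2(FPKM + 1) scale, for each of the 78 sequences, grouped by role, with its moderated standard error as a bar. Coloured points had a limma adjusted p below 0.05. Small heat shock proteins spread from −2.51 to 0.62, whereas the sequences of every other role stayed between −0.63 and 0.51.

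Small heat shock proteins carried the largest sex differences. Of the 15 sequences, 13 are named after the Drosophila gene lethal(2)essential for life, l(2)efl, which encodes a small heat shock protein, and the other 2 are named Heat shock protein homolog and Heat shock protein beta-1. An Hsp20/alpha-crystallin domain was listed for 12 of them, and no other sequence in the table carried that domain. It was not listed for DN264_c0_g1_i8_2, called higher in females, DN3012_c0_g1_i9_1, called higher in males, or the uncalled DN2566_c0_g1_i1_2. Higher in females were 7, higher in males 2, and 6 were not called. Under median-of-ratios or quantile scaling 8 were higher in females and 2 in males. Over the alternatives without a minimum fold 6 to 8 were higher in females, whereas without male 1, male 2 or male 3 none was higher in males. A minimum log2 difference of 1 left 4 higher in females and 0 in males. The median difference was −0.67, against 0.05 for all sequences tested, and it was −0.64 in the set of males 2 and 3 with female 2 and −0.60 in the set of male 1 with females 1 and 3. Because whole heads were used, fewer cells of a type and less RNA per cell cannot be told apart.

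The sequence with the largest difference was DN2475_c0_g1_i1_1, an l(2)efl sequence. Its FPKM was 3.59, 6.78 and 7.35 in males 1, 2 and 3, and 44.4, 32.6 and 34.8 in females 1, 2 and 3. The lowest female value was far above the highest male value. The means were 5.90 ± 2.02 in males and 37.3 ± 6.25 in females (SD, n = 3 each), a 6.31-fold higher level in females and a log2 difference of −2.51 (SE 0.24, limma adjusted p = 0.0044). In the set with females 1 and 3 the difference was −3.14, and in the set with female 2 it was −2.06.

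A second l(2)efl sequence, DN2085_c0_g1_i3_2, was the most abundant of the called members. It stood at 105, 135 and 119 FPKM in males 1, 2 and 3, and at 546, 463 and 489 in females 1, 2 and 3. The sexes were far apart and each was tight. Mean FPKM was 119 ± 15.1 in males and 499 ± 42.6 in females (SD, n = 3 each), 4.19-fold higher in females, with a log2 difference of −2.06 (SE 0.11, limma adjusted p = 0.0012). The differences within the library sets were −1.86 and −2.29.

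DN10328_c0_g1_i4_1, also l(2)efl, showed nearly the same ratio at a much lower level. Males 1, 2 and 3 had 4.03, 4.88 and 5.07 FPKM and females 1, 2 and 3 had 21.4, 19.1 and 16.9 FPKM. No male library came near a female one. The ratio of means was 4.11 in favour of females and the log2 difference −1.83 (SE 0.12, limma adjusted p = 0.0018), with −1.75 and −1.995 within the sets.

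The sequence named Heat shock protein homolog, DN3442_c0_g1_i1_2, carries the authors' KEGG label for crystallin alpha B, a small heat shock protein of vertebrate lens and muscle. It had 41.2, 38.2 and 40.8 FPKM in males 1, 2 and 3, and 122, 93.7 and 94.5 FPKM in females 1, 2 and 3. Female 1 stood above the other females and all 3 stood above the males. Its mean was 2.58-fold higher in females, with a log2 difference of −1.34 (SE 0.11, limma adjusted p = 0.0030).

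A group of 3 further l(2)efl sequences was higher in females by smaller amounts. DN264_c0_g1_i8_2 had 14.7, 20.4 and 15.1 FPKM in males 1, 2 and 3, against 28.5, 34.4 and 33.5 in females 1, 2 and 3, with a log2 difference of −0.91 (SE 0.14, limma adjusted p = 0.016). Its call was lost without male 1, male 3, female 2 or female 3. DN2012_c1_g2_i3_2 had 98.2, 95.8 and 94.0 FPKM in males 1, 2 and 3, against 160, 148.5 and 168 in females 1, 2 and 3, with a log2 difference of −0.72 (SE 0.06, limma adjusted p = 0.0030). DN2012 is described as a low-quality l(2)efl-like protein, its closest NR match being in another moth, Leguminivora glycinivorella. DN6131_c0_g1_i1_1 had 53.9, 57.0 and 57.8 FPKM in males 1, 2 and 3, against 101, 80.7 and 89.8 in females 1, 2 and 3, with a log2 difference of −0.67 (SE 0.09, limma adjusted p = 0.0097). In all 3, as in every called member, the sexes did not overlap.

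Both small heat shock sequences that were higher in males moved by less than 1 log2 unit. Heat shock protein beta-1, named after the mammalian Hsp27, had 128, 134 and 135 FPKM in males 1, 2 and 3, and 79.3, 95.2 and 93.9 in females 1, 2 and 3. The male libraries were close together and the lowest of them was well above the highest female. The log2 difference of this sequence, DN3012_c0_g1_i9_1, was 0.57 (SE 0.08, limma adjusted p = 0.012), or 1.48-fold higher in males. The l(2)efl sequence DN2205_c0_g1_i1_2 had 37.5, 39.1 and 41.9 FPKM in males 1, 2 and 3, and 25.8, 22.1 and 28.7 in females 1, 2 and 3. Its values did not overlap either, with a log2 difference of 0.62 (SE 0.10, limma adjusted p = 0.020), or 1.55-fold higher in males. Both calls were lost without any single male library, and that of DN2205 also without female 1. DN2205 matched the same NR protein as DN3382_c0_g1_i1_1, another l(2)efl sequence, which had 79.4, 69.2 and 77.2 FPKM in males and 87.2, 91.8 and 85.1 in females, a difference in the other direction of −0.22 (SE 0.07, limma adjusted p = 0.099).

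The most abundant of all 78 sequences was the l(2)efl sequence DN264_c0_g2_i1_2, which ranked 2 of 41283 by mean FPKM, below only the mitochondrial NADH dehydrogenase subunit 1. It stood at 9323, 8896 and 8455 FPKM in males 1, 2 and 3, and at 9742, 13863 and 14705 in females 1, 2 and 3. Female 1 lay close to the males while females 2 and 3 lay far above them, and the sexes did not overlap. The log2 difference of −0.50 carried a moderated SE of 0.44, which need not match the spread of these values, and was not called (limma adjusted p = 0.56). This 1 sequence took 1.75% to 1.90% of the summed FPKM of a male library and 1.98%, 2.82% and 3.01% of that of females 1, 2 and 3. Another abundant l(2)efl sequence, DN1150_c0_g1_i1_1, showed overlapping values of 1037, 942 and 981 FPKM in males 1, 2 and 3 and 978, 1022 and 857 in females 1, 2 and 3. Its difference was 0.05 (SE 0.11, limma adjusted p = 0.82) and changed sign with the scaling, the lowest value over the alternatives being −0.02. Together with Hsp70 cognate 4, these were the 3 members among the 100 sequences with the highest mean FPKM.

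The remaining 3 l(2)efl sequences were low and not called. DN2566_c0_g1_i1_2, which matched the same NR protein as the most abundant sequence, had 16.8, 15.5 and 13.8 FPKM in males and 33.9, 29.1 and 19.9 in females, with a difference of −0.78 (SE 0.19, limma adjusted p = 0.064). It was called under median-of-ratios scaling, under quantile scaling, with the filter on all 6 libraries, and without female 3, the female library nearest to the males. DN5309_c0_g1_i1_2 had 22.7 to 23.3 FPKM in males and 17.0 to 20.8 in females (difference 0.28, SE 0.08, limma adjusted p = 0.094), without overlap. DN6733_c0_g1_i1_1 had 11.1 to 12.5 FPKM in males and 8.82 to 14.5 in females (difference 0.14, SE 0.18, limma adjusted p = 0.71), with overlap.

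**Figure D2:**
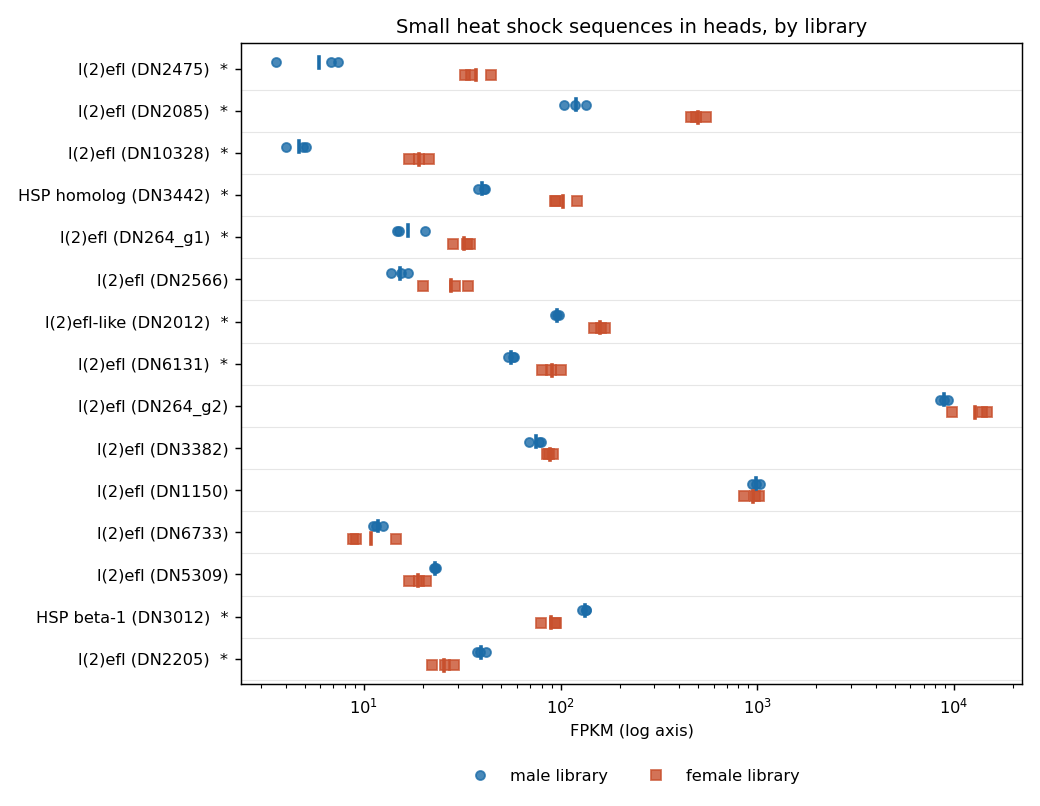
FPKM of the 15 small heat shock sequences on a log axis, with 1 point per library (circles for males, squares for females) and a bar at the mean of each sex, ordered by the sex difference. An asterisk marks a limma adjusted p below 0.05. The 3 uppermost sequences were at least 4.11-fold higher in females, and DN264_g2, at 8455 to 14705 FPKM, lies far above the next sequence.

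Annotation that the name rule did not use divided the family unevenly. It was not independent of the family, since Pfam or KEGG annotation had placed 1 of the sequences, DN3442, in it. The authors' KEGG column labels 10 sequences as crystallin alpha B, of which 9 are among these 15 and the other lies outside the 78 members. Of the 9, 6 were higher in females and 1 in males, with a median difference of −0.91. Of the 6 without that label, 1 was higher in females and 1 in males, with a median of 0.10. The gene ontology terms Z disc and sarcomere organization were attached to 12 and 11 of the 78 members, all of them small heat shock proteins, and response to heat to 17 members, 11 of them small heat shock proteins. Summed over the family, FPKM came to 10978, 10487 and 10077 in males 1, 2 and 3, and to 11998, 16025 and 16748 in females 1, 2 and 3. Without the most abundant sequence the sums were 1654, 1592 and 1622 in males and 2256, 2162 and 2043 in females, so the higher female total did not rest on that sequence alone. Most of the remaining gap lay in DN2085, at 119 FPKM on average in males and 499 in females.

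Marker lists of the tissues in a head differed between the sexes to unlike degrees. Called in either direction were 33.3% of the tested muscle, 40.0% of the fat body and hemolymph and 62.8% of the cuticle sequences. The shares were 11.4% for eye and brain, 12.9% for egg and testis and 7.41% for hemocyte names. Of all sequences tested 7.11% were called, and of those at 1 FPKM or more in every library 15.4%. Of 28 sequences named for muscle proteins 27 were tested, of which 6 were higher in males and 3 in females, with sums of 3714 to 4184 FPKM in males and 2627 to 3449 in females. The median difference of the tested muscle sequences was 0.25. The gap between the sums, though, rested on 1 sequence, muscle actin (DN112_c0_g1_i1_1), at 1944 to 2338 FPKM in males and 978 to 1336 in females. Without it the other 27 sequences summed to 1770 to 1967 FPKM in males and 1649 to 2113 in females, ranges that overlapped. Flightin, a thick-filament protein of insect flight muscle (DN369_c0_g1_i4_1), troponin C (DN1490_c0_g1_i5_1) and 1 tropomyosin-2 sequence (DN14371_c0_g3_i1_2) were the 3 higher in females, by −1.36, −0.58 and −0.34. Besides actin, those higher in males were 1 paramyosin long form sequence (DN4327_c0_g1_i2_1, 0.94) and 2 tropomyosin-1 sequences (DN1834_c0_g1_i4_1, 0.93, and DN31_c0_g1_i87_1, 0.53). A titin homolog (DN9380_c0_g1_i4_1, 0.57) and troponin I (DN535_c0_g1_i2_2, 0.35) were also higher in males. Of 14 fat body and hemolymph sequences 10 were tested, with 1 higher in males and 3 in females, and sums of 73.3 to 80.5 FPKM in males and 126 to 150 in females. That gap lay largely in arylphorin DN18247_c0_g1_i1_1 (0.04 to 0.11 FPKM in males, 25.6 to 28.9 in females) and apolipophorin-3 DN912_c0_g1_i2_2 (2.4 to 3.5 in males, 30.6 to 46.45 in females). The 1 higher in males was a 27 kDa hemolymph protein sequence (DN1320_c0_g1_i12_1), at 38.3 to 38.6 FPKM in males and 30.3 to 34.4 in females. Of 52 cuticle sequences 43 were tested, with 27 higher in males and 0 in females, and sums of 2269 to 2496 FPKM in males against 551 to 669 in females. Eye and brain markers summed to 269 to 275 FPKM in males and 244 to 257 in females over 45 sequences, 35 of them tested, with 3 higher in males and 1 in females. Chaoptin isoform X1 (DN8981_c0_g1_i6_2, 0.52) was higher in males, at 21.2 to 22.2 FPKM against 14.1 to 15.4 in females. So were synaptotagmin 1 (DN14085_c0_g1_i12_2, 0.48) and an arrestin domain-containing protein 1 sequence (DN17309_c0_g1_i6_1, 0.99). CUGBP Elav-like family member 1 (DN5098_c0_g1_i22_2, −0.46) was higher in females. The visual pigments were low and not called, with Rhodopsin at 1.40 to 2.93 FPKM and ultraviolet-sensitive opsin at 0.84 to 2.69 FPKM. Egg and testis names (38 sequences, 31 tested, 2 higher in each sex) summed to 340 to 359 FPKM in males and 366 to 373 in females. Hemocyte names (27 sequences, all tested, 2 higher in males and 0 in females) summed to 276.5 to 291 FPKM in males and 232 to 292 in females. No matched marker was at 0 in all 6 libraries, word matching takes in some proteins of other kinds, and the part of these tissues in the chaperone differences was not tested.

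Heat shock factor, the transcription factor that switches on heat shock genes, was represented by 2 sequences that matched the same NR protein and both carried the KEGG label HSF1. DN996_c0_g1_i7_2 had 18.8, 20.9 and 19.6 FPKM in males 1, 2 and 3, and 33.3, 29.9 and 30.4 in females 1, 2 and 3. The sexes were well separated. Its level was 1.58-fold higher in females, with a log2 difference of −0.63 (SE 0.06, limma adjusted p = 0.0052), −0.54 and −0.73 within the library sets. The other, DN4526_c0_g1_i10_1, had 17.1, 18.7 and 18.7 FPKM in males 1, 2 and 3 and 20.4, 21.4 and 20.9 in females 1, 2 and 3. Those values did not overlap, but the difference of −0.19 (SE 0.06) was not called (limma adjusted p = 0.11). Heat shock factor-binding protein 1, which binds the active factor and dampens it in mammals, had 96.8, 88.0 and 100 FPKM in males 1, 2 and 3 and 84.3, 82.9 and 77.7 in females 1, 2 and 3. Male values were all higher, at a difference of 0.22 (SE 0.06, limma adjusted p = 0.11) that was called only under quantile scaling.

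The Hsp70 family differed little between the sexes. Of 7 sequences 1 was higher in females, and the median difference was −0.11. Under median-of-ratios scaling 2 were higher in females, and all 7 differences were below 0 under both alternative scalings, against 5 in the scaling as deposited. Heat shock 70 kDa protein cognate 4, in Drosophila the main constitutive cytosolic Hsp70, was the second most abundant member at 3502, 3585 and 3518 FPKM in males 1, 2 and 3, and 3563, 3452 and 3451 in females 1, 2 and 3. These levels overlapped, varied little, and took 0.70% to 0.75% of each library's summed FPKM. The difference of DN2123_c1_g1_i1_1 was 0.02 (SE 0.19, limma adjusted p = 0.97), and it changed sign with the scaling, down to −0.05. That moderated SE exceeds the spread of the libraries, which stood at 3535 ± 44.3 FPKM in males and 3489 ± 64.4 in females (SD, n = 3 each).

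Heat shock protein 68, a heat-inducible Hsp70 in Drosophila, was the 1 called sequence of this family. DN1645_c0_g1_i3_2 had 13.1, 11.7 and 12.5 FPKM in males 1, 2 and 3, and 17.0, 17.1 and 16.1 in females 1, 2 and 3. All females stood above all males. Its difference was −0.40 (SE 0.07, limma adjusted p = 0.021), a 1.34-fold higher female level, and the call was lost when any 1 of the 6 libraries was left out. The other sequence of the same name, DN5020_c0_g1_i4_1, overlapped fully, with 9.58 to 12.4 FPKM in males and 8.33 to 14.3 in females (difference 0.00, SE 0.19, limma adjusted p = 1.0). Among the others, the 97 kDa heat shock protein DN330_c0_g1_i3_2, a large relative of Hsp70, had 54.5 to 61.3 FPKM in males and 63.3 to 72.1 in females (difference −0.24, SE 0.07, limma adjusted p = 0.096), and it was called under median-of-ratios scaling. Mitochondrial cognate 5, DN953_c0_g1_i7_1, averaged 75.4 ± 4.12 FPKM in males and 81.8 ± 5.26 in females (SD, n = 3 each), with overlap.

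None of the 3 Hsp90 family sequences was called. Heat shock protein 83, the cytosolic Hsp90 of Drosophila, had 273, 252 and 232 FPKM in males 1, 2 and 3, and 193, 216 and 217 in females 1, 2 and 3. The lowest male value was above the highest female value, with a wide spread among the males, and the difference of DN1067_c0_g1_i1_2 was 0.27 (SE 0.08, limma adjusted p = 0.11). Heat shock protein 90-2, the endoplasmic reticulum form, averaged 97.9 ± 2.30 FPKM in males and 88.7 ± 4.51 in females (SD, n = 3 each; DN3650_c0_g1_i1_2, difference 0.14, SE 0.05, limma adjusted p = 0.17), also without overlap. Mitochondrial Heat shock protein 75 kDa overlapped between the sexes (DN2572_c0_g1_i4_2, difference −0.12, SE 0.11, limma adjusted p = 0.57).

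The 4 co-chaperones caught by the name rule were not called either. The Hsp90 ATPase activator homolog 1, which speeds up the Hsp90 cycle, had 14.7 to 16.1 FPKM in males and 17.4 to 19.0 in females (DN297_c0_g1_i1_1, difference −0.19, SE 0.07, limma adjusted p = 0.14). Cdc37, which brings kinases to Hsp90, had 32.8 to 36.7 FPKM in males and 29.8 to 32.0 in females (DN736_c0_g1_i3_2, difference 0.15, SE 0.06, limma adjusted p = 0.19). Neither pair of ranges overlapped, and the directions were opposite. Hsp70-binding protein 1, a nucleotide exchange factor of Hsp70, was the most abundant of them at 41.8 ± 0.78 FPKM in males and 38.2 ± 2.78 in females (SD, n = 3 each; DN337_c1_g1_i13_2, difference 0.13, limma adjusted p = 0.28). BAG2, another regulator of the Hsp70 cycle, differed by 0.12 (DN1746_c0_g1_i8_1, SE 0.07, limma adjusted p = 0.34).

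DnaJ proteins, the largest role group, were balanced between the sexes: 13 of 26 differences lay above 0 and 13 below, around a median of 0.00. Higher in females were 2 and higher in males 1. DnaJ homolog subfamily A member 2, a cytosolic partner of Hsp70, was the most abundant of the group and had 150, 140 and 142 FPKM in males 1, 2 and 3, and 184, 179 and 183 in females 1, 2 and 3. The female libraries lay close together and above all males. The difference of DN12125_c0_g1_i1_2 was −0.34 (SE 0.05, limma adjusted p = 0.013), and the call was lost without male 2 or male 3. Its paralog DnaJ homolog subfamily A member 1 had 47.1, 47.2 and 45.4 FPKM in males 1, 2 and 3, and 54.1, 54.2 and 55.2 in females 1, 2 and 3. DN4882_c0_g1_i13_1 thus differed by −0.22 (SE 0.04, limma adjusted p = 0.028) with little spread, and of the 6 libraries only female 1 could be left out without losing the call.

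In the opposite direction, DnaJ homolog subfamily C member 1, a membrane protein of the endoplasmic reticulum in mammals, had 30.3, 30.7 and 25.7 FPKM in males 1, 2 and 3, and 22.0, 19.4 and 18.7 in females 1, 2 and 3. Male 3 was nearest to the females, and the sexes did not overlap. The difference of DN24715_c0_g1_i1_1 was 0.51 (SE 0.09, limma adjusted p = 0.030), 1.44-fold higher in males, and the call was lost without male 1, male 2, female 2 or female 3. The other 23 DnaJ sequences ranged from 2.18 to 74.0 FPKM on average and had no call.

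Chaperonins were mostly alike in the sexes in the scaling as deposited, with 2 of 12 higher in females, 0 in males and a median difference of −0.14. Below 0 were 9 of the 12 differences, which became 12 under median-of-ratios and 7 under quantile scaling. Heat shock protein 60A, the mitochondrial chaperonin, had 150, 148 and 139 FPKM in males 1, 2 and 3, and 207, 189 and 184 in females 1, 2 and 3. Female 1 was the highest library, and all females stood above all males. Its difference was −0.40 (DN8167_c0_g1_i1_2, SE 0.06, limma adjusted p = 0.019), and the call was lost without any single male library or female 2. Its lid, the 10 kDa heat shock protein, had 74.1 to 84.8 FPKM in males and 84.6 to 105 in females, ranges that just met (DN6167_c0_g1_i7_1, difference −0.20, SE 0.10, limma adjusted p = 0.27).

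The cytosolic chaperonin, which folds actin and tubulin among other clients, is a ring of different T-complex protein 1 subunits, of which 7 were found by name. The delta subunit sequence DN7759_c0_g1_i2_2 had 60.4, 59.6 and 58.4 FPKM in males 1, 2 and 3, and 72.2, 67.4 and 67.7 in females 1, 2 and 3. Its difference of −0.21 (SE 0.05) was just past the threshold (limma adjusted p = 0.045), and the call was lost when any 1 library was left out. A second delta sequence with the same NR match, DN9634_c0_g2_i2_1, averaged 108 ± 4.08 FPKM in males and 114 ± 0.63 in females (SD, n = 3 each; difference −0.07, SE 0.05, limma adjusted p = 0.40). Beta, gamma, epsilon, zeta and eta differed by between −0.03 and 0.06 and were not called, although these subunits stood at 49.2 to 162 FPKM on average. The theta name was carried by 3 sequences that matched 1 NR protein, at 1.63, 33.3 and 119 FPKM on average, with differences of −0.32, −0.21 and −0.20 and no call.

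Prefoldin went slightly the other way, with 5 of 6 differences above 0, a median of 0.16 and 1 call. The sequence named prefoldin subunit 1, DN444_c0_g1_i1_2, had 28.6, 28.6 and 30.7 FPKM in males 1, 2 and 3, and 21.9, 22.9 and 22.0 in females 1, 2 and 3. Its difference was 0.38 (SE 0.05, limma adjusted p = 0.011), 1.31-fold higher in males, and the call was lost without male 1. A more abundant sequence of the same name, DN8824_c0_g1_i1_2, was the 1 prefoldin below 0, at 113 ± 7.71 FPKM in males and 126 ± 6.78 in females (SD, n = 3 each; difference −0.16, SE 0.07, limma adjusted p = 0.24). The T-complex protein 11-like pair, which matched 1 NR protein, had higher male values in every library without a call (DN2583_c2_g1_i6_2, difference 0.23, limma adjusted p = 0.068, and DN4996_c0_g1_i4_1, difference 0.34, limma adjusted p = 0.12).

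**Figure D3:**
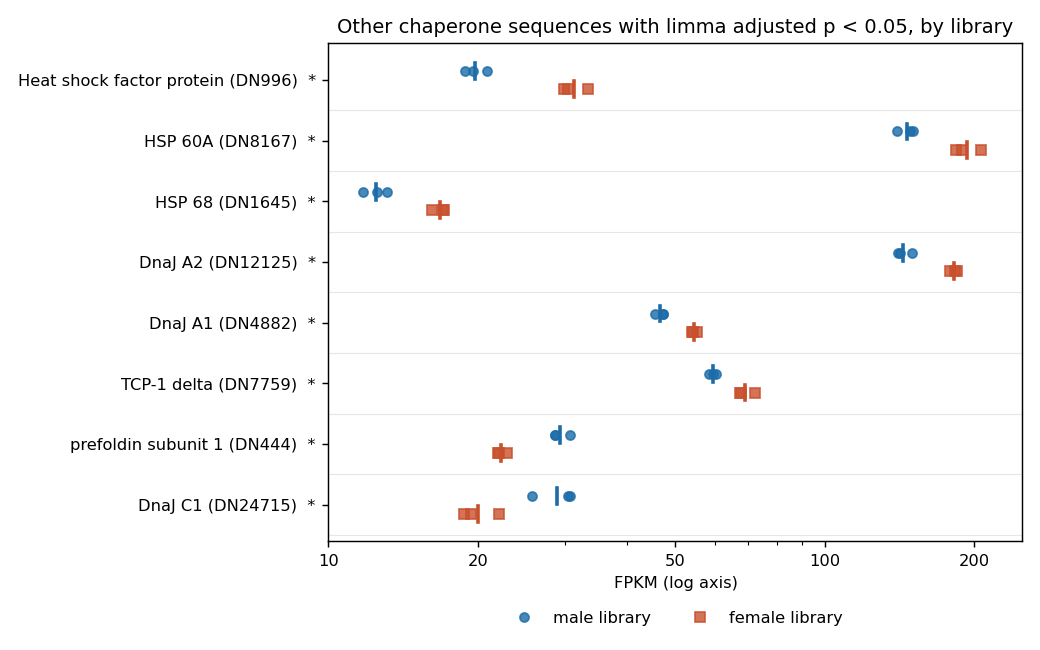
FPKM of the 8 called sequences that are not small heat shock proteins, on a log axis, with 1 point per library and a bar at the mean of each sex. The sexes did not overlap in any of the 8, as in every called member, which selection by the call makes likely. The ratios of means ran from 1.16-fold (T-complex protein 1 delta) to 1.58-fold (heat shock factor).

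With the library set as a term in the model, 12 of the 17 stayed called, among them all 9 small heat shock proteins. The 5 that dropped out were HSP60A, Heat shock protein 68, T-complex protein 1 delta, and DnaJ A1 and C1. Calls were made among members ending in 1 (2 higher in males and 4 in females, of 38) and in 2 (2 and 9, of 40).

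**Figure D4:**
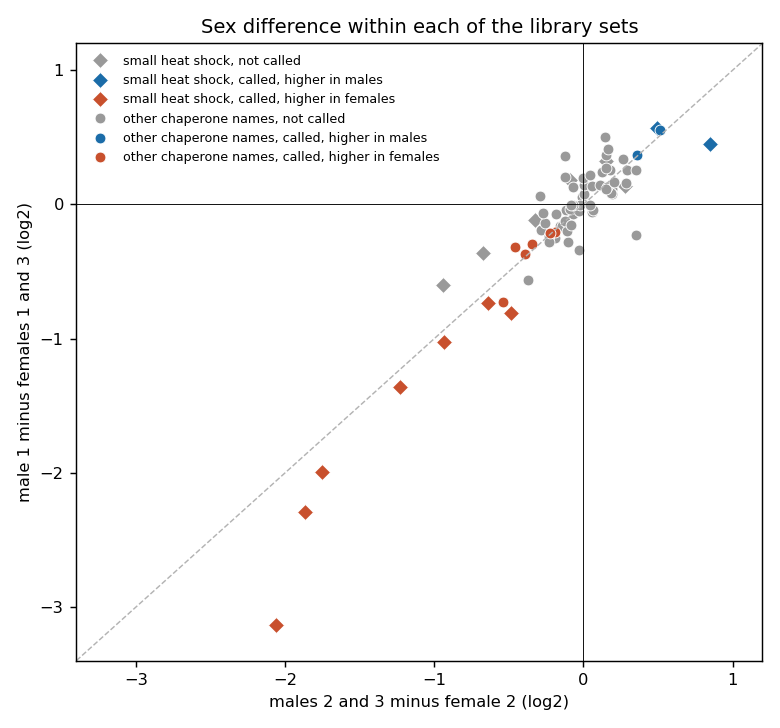
Log2 difference between the sexes in the set with female 2 (horizontal axis, males 2 and 3 minus that female) and in the set with male 1 (vertical axis, that male minus females 1 and 3), for each of the 78 sequences, with diamonds for small heat shock proteins. The dashed line marks equal differences. Because no called sequence overlaps between the sexes, both of its differences must share a sign. DN2475 lies farthest from 0 at −2.06 and −3.14.

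Folding partners outside the member names were counted for comparison. Of 39 such sequences 37 were tested, of which 4 were higher in females and 2 in males, with a median difference of −0.01. Called were 16.2% of those tested, and 18.2% of the endoplasmic reticulum chaperones given below. Of all sequences tested 7.11% were called, and of those at 1 FPKM or more in every library 15.4%. The SGT1 homolog, a co-chaperone of Hsp90, had 71.3, 79.2 and 71.7 FPKM in males 1, 2 and 3, and 133, 141 and 157 in females 1, 2 and 3 (DN478_c0_g1_i3_1, difference −0.95, SE 0.08, limma adjusted p = 0.0031). The other 3 higher in females were the prolyl isomerases FKBP8 (DN9206_c0_g1_i5_1, −0.53) and D (DN10337_c0_g2_i3_1, −0.43), and unc-45 homolog B (DN14133_c0_g1_i1_1, −0.31), a chaperone of myosin. Higher in males were a tubulin-specific chaperone cofactor E-like sequence (DN4769_c0_g2_i4_1, 0.95) and a second FK506-binding isomerase (DN2492_c0_g1_i3_2, 0.54). Without male 1, male 2 or male 3 these calls fell to 2 in females and 1 in males, and median-of-ratios scaling gave 7 and 2. Among 11 endoplasmic reticulum chaperones, calnexin was higher in females (DN1012_c0_g1_i6_2, difference −0.77, limma adjusted p = 0.0039), calreticulin higher in males (DN10008_c0_g1_i5_2, difference 0.46, limma adjusted p = 0.042), and 9 were not called, among them BiP, the Hsp70 of that compartment (DN5150_c0_g1_i2_2, difference 0.02). The call of calreticulin was lost under median-of-ratios scaling and without male 1, male 2, male 3, female 2 or female 3.

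Proteasome subunits, which degrade proteins that chaperones fail to refold, were higher in females in 30 of 47 tested sequences and in males in 0. That was 63.8% of those tested, against 2.7% of all sequences higher in females, and the median difference was −0.50. The count higher in females was 32 under median-of-ratios and 29 under quantile scaling, and 21 to 28 with 1 library left out. Their FPKM summed to 3148 to 3293 in males and 4639 to 4849 in females. Among 34 tested oxidative and general stress sequences, by contrast, only peroxiredoxin-4 was called, higher in males (DN118_c0_g1_i3_1, difference 0.45, limma adjusted p = 0.040), with a median of −0.04 over the list. That call was lost under median-of-ratios scaling, with the library set as a term and without male 1, male 2, male 3, female 2 or female 3, and without male 3 another sequence was instead higher in females.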

How the data were processed

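RNA was extracted with Trizol from heads and made into stranded mRNA libraries, per the labels' protocols. Trimmomatic, HTSeq and R 3.2.0 are listed, without their roles, per the submitters' processing notes. No aligner is given in the sources used here. The authors deposited 1 table with the FPKM of each assembled sequence per library, beside its annotation. All its library columns belonged to the 6 samples. No genome was used, so sequences have no coordinates.

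From these values log2(FPKM + 1) was computed, a log2 scale that the authors did not deposit. Sequences at 1 FPKM or more in at least 3 of 6 libraries were kept. The sexes were tested against each other by limma 3.58.1 under R 4.3.3, with a two-sided moderated test, a trend of variance on mean and no replicate block. P-values were adjusted by Benjamini-Hochberg across the 35198 kept sequences, and 0.05 was the threshold. The fit was tested on simulated data. FPKM values are not counts, so no count test was used.

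Members, role groups, comparison lists and marker lists were chosen with earlier results of these data known. Role groups followed names, with 4 members moved by their Pfam or KEGG annotation. Named were all called members, in each role the most abundant and the highest and lowest differences, and all small heat shock and heat shock factor sequences. Other sequences were named for comparison. A match to a protein name says nothing certain about function in this moth. Alternatives were pseudocounts, filters, scalings, robust shrinkage, the library set as a term, a replicate block, each library left out, NR names alone, a minimum fold, and, added after seeing the data, members by Pfam domain and without the T-complex protein 11-like pair.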

Additional observations from a re-analysis of the deposited data

How the results depend on the processing

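None of the 17 called members changed direction under the 15 alternatives refitted across all sequences. As no called sequence overlapped between the sexes, only the alternative scalings could have reversed one, so the other alternatives say nothing on direction. The count of 17 called members stayed between 12 and 19 under pseudocounts of 0.1 and 0.5, other filters, both scalings, robust shrinkage, the library set as a term, NR names alone, members by Pfam domain and without the T-complex protein 11-like pair. A minimum log2 difference of 1 left 4, all small heat shock proteins (DN2475, DN2085, DN10328 and DN3442). Leaving out 1 library at a time gave 8 to 14 called members and, over all sequences, 822 to 1776 in place of 2501. The library set as a term gave 1136 over all sequences. Of the 17 members, 7 kept the call in every fit with 1 library left out and 6 under all 15 of those alternatives: DN2475, DN2085, DN10328, DN3442, DN2012 and the heat shock factor sequence DN996. Of 61 members that were not called, 5 were called under at least 1 of the 15: DN2566, DN2583, DN3096, DN330 and DN5531. The causes of these changes were not tested.

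The replicate numbers were not taken as pairs. Deviations of same-numbered libraries correlated at 0.11, 0.12 and −0.05. Libraries of different number within a library set reached similar values, 0.09 for male 3 with female 2 and 0.08 for male 1 with female 3. The correlations therefore cannot settle whether same-numbered samples were paired. With the replicate block 9 members were called (7 higher in females and 2 in males), and 631 of all sequences. Depth is unknown, so no counting error can be given, and 3 libraries a sex limit the precision.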

Other observations

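Chaperone domains were also listed for 20 sequences whose names the rule did not catch, which makes 82 sequences with such a domain. Of these 20, 1 was called: an unnamed protein with a TCP-1/cpn60 chaperonin domain (DN2918_c0_g1_i1_2) had 79.8, 82.1 and 78.6 FPKM in males 1, 2 and 3 and 102, 92.0 and 93.6 in females 1, 2 and 3, a log2 difference of −0.26 (SE 0.05, limma adjusted p = 0.044). The most abundant of them was a J domain-containing protein (DN4429_c0_g1_i2_2) at 198 ± 21.0 FPKM in males and 160 ± 17.8 in females (SD, n = 3 each), which was not called (difference 0.30, limma adjusted p = 0.16). The mitochondrial iron-sulfur co-chaperone HscB (DN5045_c0_g1_i3_2), which delivers clusters with an Hsp70 partner, had 9.81 to 10.9 FPKM in males and 6.81 to 8.33 in females, without overlap and without a call (difference 0.38, limma adjusted p = 0.065).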
